A study of Homo sapiens with 24 samples.

Results

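The glutathione S-transferases (GSTs) are a family of detoxifying enzymes, and the 10 family members described here were chosen by gene symbol: GSTM2, GSTM3, GSTM4, GSTP1, GSTO1, GSTK1, GSTA4, MGST1, MGST2 and MGST3. They are 10 of the 61251 genes in the expression table, and each symbol matched 1 gene. RNA sequencing covered 24 libraries of the human KYSE450 cell line, labelled wild type and derived from oesophageal squamous cell carcinoma, in 4 groups of 6. The groups were drug tolerant persister (DTP) cells of the parental line, the parental line itself, DTP cells of a chemoresistant subline titled KYSE450DDP, and that chemoresistant subline. Persisters, as the term is generally used, are cells that outlive a drug exposure without a heritable resistance. The labels name no drug or dose and do not expand the suffix DDP. The cells were grown in RPMI-1640 with 10% fetal bovine serum and are labelled as not treated. Whether each of the 6 libraries had its own culture is not stated, so the p-values refer to the spread among these samples and that spread may be technical.

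Glutathione S-transferases join the sulphur of glutathione to electrophilic compounds, which include drugs and the products of lipid peroxidation, and several also reduce peroxides. The soluble enzymes fall into classes such as mu (GSTM genes), pi (GSTP1), alpha (GSTA4) and omega (GSTO1), kappa (GSTK1) sits in mitochondria and peroxisomes, and the microsomal forms (MGST genes) are membrane proteins. The conjugates leave the cell through ABCC transporters, and many transferase genes are known targets of the stress regulator NRF2, encoded by NFE2L2.

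The values are FPKM (fragments counted on a gene, divided by its length and scaled to the library's total), which allow levels to be compared between genes of different length. Each library held 14947490 to 37989783 assigned reads, recovered from the FPKM values. The limit that a count of 0 allows, for counting error only, is 3 reads, which is 0.079 to 0.201 CPM depending on the library. All 8 squamous markers listed had a mean of at least 1 FPKM in every group, while their sum was 2688 to 3311 FPKM in parental DTP libraries and 4544 to 5038 FPKM in parental libraries. Summed endothelial markers were 0.888 to 1.14 FPKM in chemoresistant libraries and 0.103 to 0.231 FPKM in parental libraries, and did not overlap either. VWF led that sum, with means of 0.857 FPKM in chemoresistant and 0.0617 FPKM in parental cells, while TEK had the lower mean in chemoresistant cells. Of 4 tested fibroblast markers 2 were higher in chemoresistant than in parental cells, or 1 with relative log expression or upper-quartile factors. The untested markers DCN and PDGFRB went the other way, with means of 0.043 and 0.074 FPKM in chemoresistant and 0.173 and 0.258 FPKM in parental cells. Summed fibroblast markers were between 1.42 and 19.2 FPKM and summed glandular markers between 0.15 and 4.18 FPKM. Summed leukocyte markers stayed at or below 2.79 FPKM in every library. They were 0.178 to 2.48 FPKM, led by LYZ, in parental DTP libraries and 0.0929 to 0.186 FPKM in parental libraries. The part of these markers in the results was not tested. Library 2 of the chemoresistant DTP cells, libraries 5 and 6 of the parental DTP cells and libraries 5 and 6 of the parental cells lay apart from their groups, alone or as a pair, for at least 1 member. Of these, Dixon's test for a single outlying value flagged only chemoresistant DTP library 2 and parental DTP library 6. That test also flagged parental library 4, for MGST3. Leaving out all 5 was an alternative added after the data were seen. Being bulk measurements, the libraries cannot tell apart fewer cells of a type from less RNA per cell.

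The 3 mu class genes lie in an 85.0-kb stretch of chromosome 1 (GRCh38, GENCODE release 29). GSTM4 spans chr1:109656081-109674836 and GSTM2 chr1:109668022-109709551, both on the plus strand, and these gene spans overlap by 6815 bases. GSTM3 spans chr1:109733932-109741038 on the minus strand, inside the span of GSTM5 on the plus strand, which averaged 0.00157 FPKM over the 24 libraries. Of the 50-base words in their transcripts, GSTM2 shared 16.0%, GSTM4 15.5% and GSTM3 1.18% with transcripts of other genes, so the split of reads between GSTM2 and GSTM4 is uncertain. The other members lie at chr11:67583595-67586656 (GSTP1, plus strand), chr10:104235356-104267459 (GSTO1, plus), chr7:143244093-143270854 (GSTK1, plus), chr6:52977948-52995378 (GSTA4, minus), chr12:16347142-16609259 (MGST1, plus), chr4:139665768-139740745 (MGST2, plus) and chr1:165630861-165661796 (MGST3, plus).

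Promoter windows of RefSeq (GRCh38.p14, 250 bases before to 50 after the start) matched 9 of the 10 members with 11 windows, and MGST2 was not matched. GSTM4 and GSTM3, at either end of the mu cluster, were both far higher in the chemoresistant than in the parental line, and their windows differ in base composition. The stretch from 150 to 31 bases before the start is shown for each, with CpG sites in capitals. The GSTM4 stretch, at chr1:109655949-109656068 on the plus strand, holds 12 CpG sites and 63.3% G and C. The GSTM3 stretch, at chr1:109741069-109741188 on the minus strand, holds 1 CpG site and 36.7% G and C. Over the full window the GC content of GSTM4 stood at the 59.5th percentile of all 35116 windows and that of GSTM3 at the 13.6th.
GSTM4: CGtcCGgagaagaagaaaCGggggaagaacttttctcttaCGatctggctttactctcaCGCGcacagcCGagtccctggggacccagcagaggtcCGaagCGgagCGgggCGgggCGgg
GSTM3: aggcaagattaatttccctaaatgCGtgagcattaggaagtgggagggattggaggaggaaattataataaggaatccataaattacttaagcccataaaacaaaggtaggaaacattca

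The antioxidant response element core, searched as TGACNNNGC on both strands, occurred in 13.3% of all windows of that length. It was found for 4 members, each shown as 30 bases in the gene's direction with the match in capitals. The GSTP1 match, from 66 to 58 bases before the start at chr11:67583736-67583765, also holds TGACTCA, a motif found in 4.95% of windows. GSTO1 had a pair of matches, at chr10:104254656-104254685 and chr10:104254721-104254750. The GSTA4 match at chr6:52995274-52995303 (minus strand) ends at the base before the start, and the MGST1 match at chr12:16347135-16347164 lies after the start in 1 of its 3 windows. A match describes the letters only.
GSTP1: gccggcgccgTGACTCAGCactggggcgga
GSTO1 first: ggcggagggaTGACTGAGCatttataactt
GSTO1 second: cgagatgcttTGACACAGCcccttaagatg
GSTA4: ccgggaccgcTGACCTGGCgctttgtgcgg
MGST1: ggggacatcgTGACAAAGCaaattgtctgg

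GSTP1, the pi class enzyme that also binds the kinase JNK, dominated the family in every group. It held on average 85.7% of the summed FPKM of the 10 members in parental DTP cells, 88.1% in parental cells, 86.9% in chemoresistant DTP cells and 84.5% in chemoresistant cells, and stood above 99.6% of the 13729 tested genes in each. Its lowest, median and highest libraries had 516, 554 and 639 FPKM in parental DTP cells, against 543, 600.3 and 668 FPKM in parental cells. They had 669, 723 and 1057 FPKM in chemoresistant DTP cells, against 627, 678 and 751 FPKM in chemoresistant cells. Within each line the persister and non-persister libraries overlapped, whereas every chemoresistant DTP library lay above every parental DTP library.

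Among the mu class, GSTM4 was the gene whose 4 groups were fully separated with the deposited FPKM. Its lowest, median and highest libraries had 2.20, 2.37 and 2.75 FPKM in parental DTP cells, against 1.35, 1.57 and 1.64 FPKM in parental cells. They had 5.72, 6.17 and 7.23 FPKM in chemoresistant DTP cells, against 8.51, 9.05 and 9.44 FPKM in chemoresistant cells. The order was therefore chemoresistant, chemoresistant DTP, parental DTP and parental, with no overlap between neighbours. Overlap of libraries was not examined under other scalings. GSTM3, a mu class enzyme best known from brain and testis, had 2.91, 3.08 and 3.34 FPKM in parental DTP cells, against 2.84, 3.21 and 3.64 FPKM in parental cells. In chemoresistant DTP cells it had 7.79, 8.12 and 11.1 FPKM, against 9.16, 9.67 and 11.1 FPKM in chemoresistant cells. Only the resistant line was set apart from the parental line, since the DTP libraries overlapped with their own line in both cases. In the chemoresistant DTP group library 2 accounted for that overlap.

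GSTM2 was close to the limit of detection and did not reach the 1 FPKM needed for testing. It had 2 to 13 reads per library (51 in all) in parental DTP cells, against 0 to 6 (19 in all) in parental cells. It had 19 to 33 reads (162 in all) in chemoresistant DTP cells, against 15 to 49 (169 in all) in chemoresistant cells. The mean FPKM was 0.035 ± 0.013, 0.013 ± 0.010, 0.127 ± 0.035 and 0.133 ± 0.056 in the same order of groups (SD, n = 6 each). All libraries of the chemoresistant groups lay above all of the corresponding parental groups, and within a line the groups overlapped. The filter at 1 FPKM left GSTM2 out of the main test. Without the filter its log2(FPKM + 1) change was 0.16 in chemoresistant against parental cells (limma adjusted p = 8.39e-06) and 0.12 in chemoresistant DTP against parental DTP cells (limma adjusted p = 0.000405). Of the 41101 genes tested without it, 11775 and 5545 were called higher in these 2 comparisons. As the split of reads between GSTM2 and GSTM4 is uncertain, the GSTM2 values may include GSTM4 reads, which was not tested.

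GSTA4, the alpha class enzyme that conjugates the lipid peroxidation product hydroxynonenal, followed the same order of groups as GSTM4. It had 7.10, 7.71 and 8.61 FPKM (lowest, median and highest library) in parental DTP cells, against 4.41, 5.52 and 7.18 FPKM in parental cells. In chemoresistant DTP cells it had 12.05, 13.1 and 15.05 FPKM, against 15.13, 18.6 and 19.5 FPKM in chemoresistant cells. Only the parental DTP and parental libraries overlapped, through parental library 6 at 7.18 FPKM.

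GSTO1, the omega class enzyme, which reduces dehydroascorbate and thiol conjugates, had 22.8, 24.1 and 33.5 FPKM in parental DTP cells, against 17.6, 19.9 and 21.3 FPKM in parental cells. It had 26.0, 27.0 and 36.5 FPKM in chemoresistant DTP cells, against 32.3, 34.9 and 36.2 FPKM in chemoresistant cells. The parental DTP cells did not overlap with the parental cells, and the overlap in the chemoresistant line came from DTP library 2. GSTK1, of the kappa class, had 14.5, 15.0 and 15.2 FPKM in parental DTP cells, against 11.9, 12.7 and 13.3 FPKM in parental cells. It had 13.8, 14.0 and 16.3 FPKM in chemoresistant DTP cells, against 15.3, 16.1 and 16.8 FPKM in chemoresistant cells. Both persister groups thus lay between the parental and chemoresistant cells in mean and overlapped with each other.

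MGST1, an endoplasmic reticulum and outer mitochondrial membrane enzyme with transferase and peroxidase activity, ran in another order. It had 21.96, 25.7 and 28.5 FPKM in parental DTP cells, against 27.5, 29.04 and 30.6 FPKM in parental cells. It had 26.8, 27.8 and 32.8 FPKM in chemoresistant DTP cells, against 20.7, 22.2 and 24.1 FPKM in chemoresistant cells. The parental cells were highest and the chemoresistant cells lowest, and all chemoresistant DTP libraries lay above all chemoresistant libraries. MGST2, which can make leukotriene C4, had 6.24, 9.27 and 9.86 FPKM in parental DTP cells, against 4.39, 5.26 and 6.97 FPKM in parental cells. It had 8.95, 10.3 and 11.3 FPKM in chemoresistant DTP cells, against 8.09, 10.2 and 12.02 FPKM in chemoresistant cells. The first pair overlapped through parental DTP library 6 at 6.24 FPKM, and the second pair overlapped throughout. MGST3, a microsomal member with peroxidase activity, had 3.02, 3.26 and 3.43 FPKM in parental DTP cells, against 2.81, 2.93 and 3.55 FPKM in parental cells, and these overlapped. It had 3.95, 4.25 and 5.22 FPKM in chemoresistant DTP cells, against 4.69, 5.02 and 5.21 FPKM in chemoresistant cells, where DTP library 2 made the overlap.

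**Figure D1:**
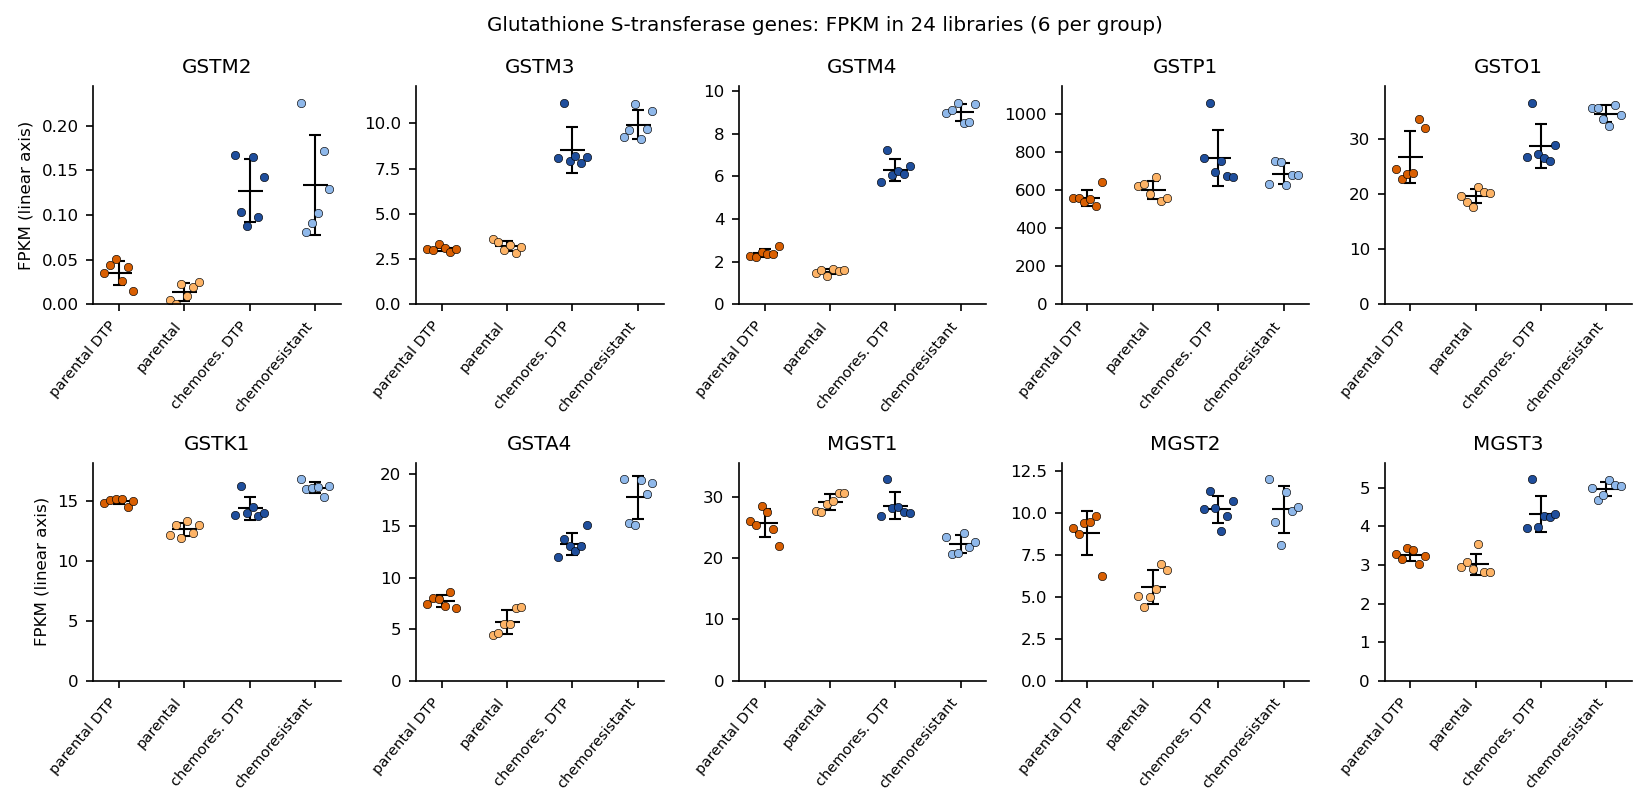
FPKM of each member (linear axis from 0, 1 panel per gene) in the 6 libraries of each group, with points for libraries 1 to 6 from left to right and bars for the mean ± SD. With the FPKM as deposited, GSTM4 has no overlap between any of its 4 groups, GSTP1 reaches 1057 FPKM in 1 chemoresistant DTP library, and GSTM2 stays below 0.23 FPKM.

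Chemoresistant cells carried more transcript of most of the family than parental cells. Of the 9 tested members, 7 rose (GSTM3, GSTM4, GSTO1, GSTK1, GSTA4, MGST2 and MGST3), 1 fell (MGST1) and GSTP1 did not pass the test, limma on log2(FPKM + 1) with an adjusted p threshold of 0.05. Among all 13729 tested genes, 48.2% rose and 29.4% fell in this comparison. The median change was 0.78 over the members and 0.14 over all tested genes, on the log2(FPKM + 1) scale. Of the 9 tested members, the 8 called had no overlap between the libraries and GSTP1 overlapped. Among all tested genes, called or not, 61.8% had no overlap.

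The mu and alpha class genes moved furthest. GSTM4 averaged 8.99 ± 0.40 FPKM in chemoresistant cells and 1.54 ± 0.11 FPKM in parental cells (SD, n = 6 each), a ratio of 5.84 and a log2 change of 1.98 (SE 0.05, limma adjusted p = 2.73e-21). GSTM3 averaged 9.92 ± 0.79 FPKM in chemoresistant cells and 3.23 ± 0.29 FPKM in parental cells, a log2 change of 1.37 (SE 0.07, limma adjusted p = 2.49e-15). GSTA4 averaged 17.8 ± 2.1 FPKM in chemoresistant cells and 5.72 ± 1.17 FPKM in parental cells, a log2 change of 1.49 (SE 0.09, limma adjusted p = 2.1e-13). These 3 genes passed an absolute log2 change of 1, as 13.3% of tested genes did.

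Smaller rises were seen in the omega, kappa and microsomal members. GSTO1 averaged 34.6 ± 1.5 FPKM in chemoresistant cells and 19.6 ± 1.3 FPKM in parental cells, a log2 change of 0.79 (SE 0.09). MGST2 averaged 10.2 ± 1.4 FPKM in chemoresistant cells and 5.58 ± 1.01 FPKM in parental cells, a log2 change of 0.78 (SE 0.10). MGST3 changed by 0.57 (SE 0.05) on this scale, at 4.97 ± 0.19 FPKM in chemoresistant cells and 3.02 ± 0.28 FPKM in parental cells. GSTK1 was 0.33 (SE 0.04) higher on the log2 scale, but 0.06 and not called with relative log expression factors (adjusted p = 0.285) and -0.13 with upper-quartile factors. Their adjusted p-values were 1.5e-08, 2.33e-07, 2.76e-10 and 2.76e-08 in that order of mention (limma).

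MGST1 was the member that fell, to 22.3 ± 1.4 FPKM in chemoresistant cells, against 29.1 ± 1.3 FPKM in parental cells, a log2 change of -0.37 (SE 0.06, limma adjusted p = 2.3e-06). GSTP1 averaged 685 ± 53 FPKM in chemoresistant cells and 599.7 ± 48.4 FPKM in parental cells, with a log2 change of 0.19 (95% interval 0.01 to 0.37) and a limma adjusted p of 0.0503. Under relative log expression scaling the GSTP1 change was -0.09 and not called (limma adjusted p = 0.473). Upper-quartile factors gave -0.30, called lower (limma adjusted p = 0.0332). By contrast, limma-voom on the recovered reads gave 0.20, called higher (adjusted p = 0.0365), so the direction of GSTP1 was not settled. Relative to the all-gene median of 0.14, the changes were 1.84 for GSTM4, 1.35 for GSTA4, 1.22 for GSTM3, 0.65 for GSTO1, 0.63 for MGST2, 0.43 for MGST3, 0.19 for GSTK1, 0.05 for GSTP1 and -0.51 for MGST1. Of the genes called, 62.1% were higher in chemoresistant cells with FPKM as deposited and 44.4% with relative log expression factors.

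**Figure D2:**
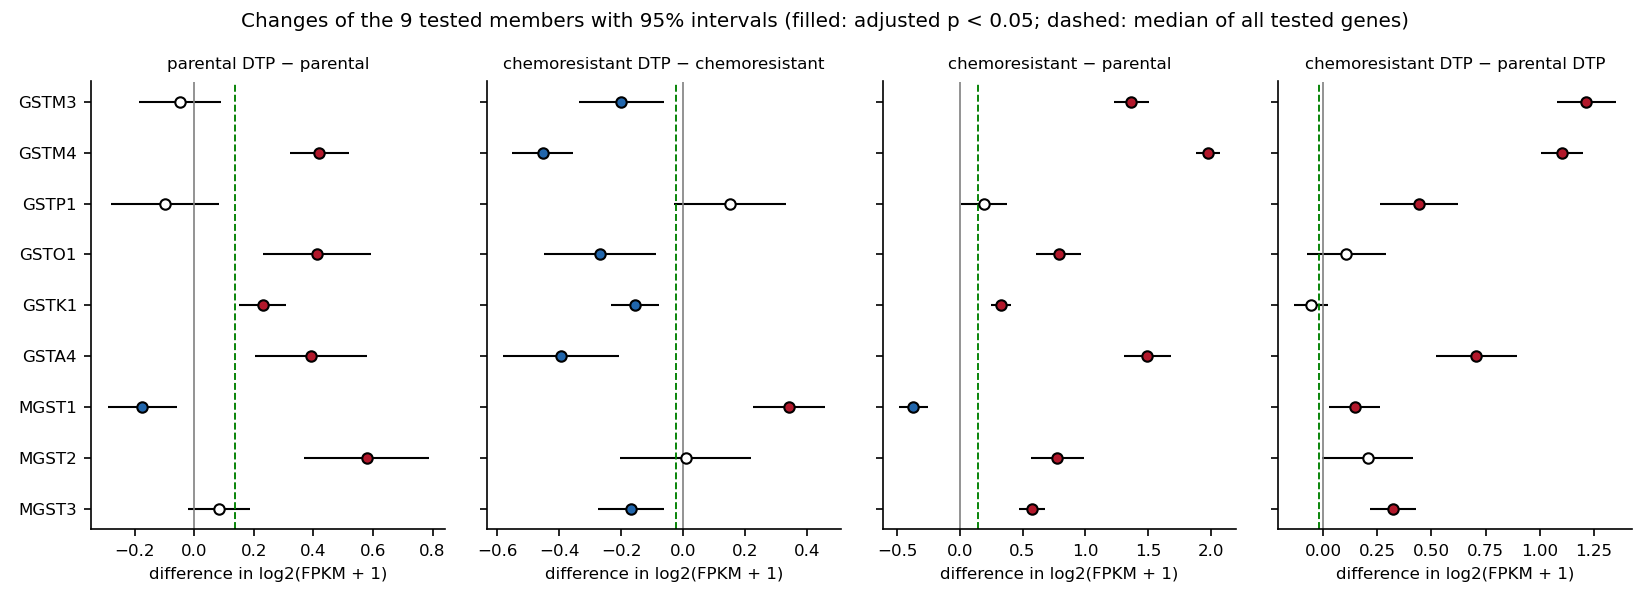
Change of each tested member in the 4 pairwise comparisons, as the difference in log2(FPKM + 1) with its 95% interval. Filled red points rose and filled blue points fell at an adjusted p below 0.05, open points did not pass, and the dashed green line is the median of all 13729 tested genes. GSTM4 and GSTA4 lie right of 0 in parental DTP cells and left of 0 in chemoresistant DTP cells, and MGST1 the opposite way, while the GSTK1 point of 0.23 in the first panel changes sign under relative log expression and upper-quartile scaling.

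With the deposited FPKM, the persister state of the parental line came with moderate rises. Only those of GSTM4 and MGST2 were called under every scaling tried. Of the 9 tested members 5 rose (GSTM4, GSTO1, GSTK1, GSTA4 and MGST2), MGST1 fell, and GSTM3, GSTP1 and MGST3 did not pass, against 45.8% of all tested genes that rose and 19.7% that fell. The median change was 0.23 over the members and 0.14 over all tested genes, but -0.015 and -0.054 with relative log expression factors and -0.16 and -0.17 with upper-quartile factors. MGST2 had the largest log2(FPKM + 1) change among the tested members, at 8.81 ± 1.31 FPKM in parental DTP cells and 5.58 ± 1.01 FPKM in parental cells (SD, n = 6 each), a log2 change of 0.58 (SE 0.10, limma adjusted p = 2.57e-05). GSTM4 averaged 2.40 ± 0.19 FPKM in parental DTP cells and 1.54 ± 0.11 FPKM in parental cells, a log2 change of 0.42 (SE 0.05, limma adjusted p = 4.39e-08). As ratios of mean FPKM the 2 genes were close, at 1.58 for MGST2 and 1.56 for GSTM4.

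GSTO1 averaged 26.7 ± 4.8 FPKM in parental DTP cells and 19.6 ± 1.3 FPKM in parental cells, a log2 change of 0.41 (SE 0.09, limma adjusted p = 0.000245). The change was 0.26 without parental DTP libraries 5 and 6, which had 33.5 and 32.0 FPKM where the other 4 had at most 24.4 FPKM. GSTA4 averaged 7.73 ± 0.57 FPKM in parental DTP cells and 5.72 ± 1.17 FPKM in parental cells, a log2 change of 0.39 (SE 0.09, limma adjusted p = 0.000593). GSTK1 averaged 15.0 ± 0.3 FPKM in parental DTP cells and 12.6 ± 0.6 FPKM in parental cells, a log2 change of 0.23 (SE 0.04, limma adjusted p = 1.15e-05), which became -0.02 with relative log expression and -0.16 with upper-quartile scaling.

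MGST1 fell to 25.7 ± 2.3 FPKM in parental DTP cells, against 29.1 ± 1.3 FPKM in parental cells, a log2 change of -0.18 (SE 0.06, limma adjusted p = 0.009). That call was lost without parental DTP libraries 5 and 6, at -0.11 (adjusted p = 0.0838), and without parental libraries 5 and 6, at -0.14 (adjusted p = 0.0586). GSTP1 had a log2 change of -0.10 (95% interval -0.28 to 0.08), GSTM3 one of -0.05 (-0.19 to 0.09) and MGST3 one of 0.08 (-0.02 to 0.19). Their adjusted p-values were 0.333, 0.538 and 0.159, and the MGST3 value turned negative under all 3 other scalings. GSTP1 was called lower under all 3 of those scalings, from -0.29 to -0.51 (limma adjusted p from 0.0253 to 0.000953). GSTM3 was called lower under them too, from -0.19 to -0.37 (limma adjusted p from 0.0424 to 0.00138). GSTP1 was also called lower without the 5 libraries that lay apart (-0.18, limma adjusted p = 0.0138), and MGST3 higher without parental library 4 (0.12, limma adjusted p = 0.0371). Leaving out the 5, or parental libraries 5 and 6, was chosen after the data were seen, so the p-values of those exclusions are descriptive only.

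Scaling between libraries decided how many members rose in parental DTP cells. Relative log expression factors, computed over all genes above 0 in every library, gave 2 higher (GSTM4 and MGST2) and 3 lower members (GSTM3, GSTP1 and MGST1), and 42.6% higher among all called genes, where the deposited FPKM gave 69.9%. The same factors computed from the tested genes, an alternative added after the data were seen, set the all-gene median to 0.00 and gave 4 higher and 3 lower members. GSTM4, at 0.30, and MGST2, at 0.42, passed as higher there and in every other alternative tried. GSTO1 (0.16) and GSTA4 (0.17) lost their calls with the factors over all genes above 0, with adjusted p-values of 0.142 and 0.0689. Of 4 listed nuclear-retained RNAs, MALAT1 and NEAT1 were above 1 FPKM and both rose in this comparison, MALAT1 with the deposited FPKM only among the scalings. The summed list was at 51.4 to 60.8 FPKM in parental DTP libraries and at 25.0 to 41.7 FPKM in parental libraries, and its part in the result was not tested.

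**Figure D3:**
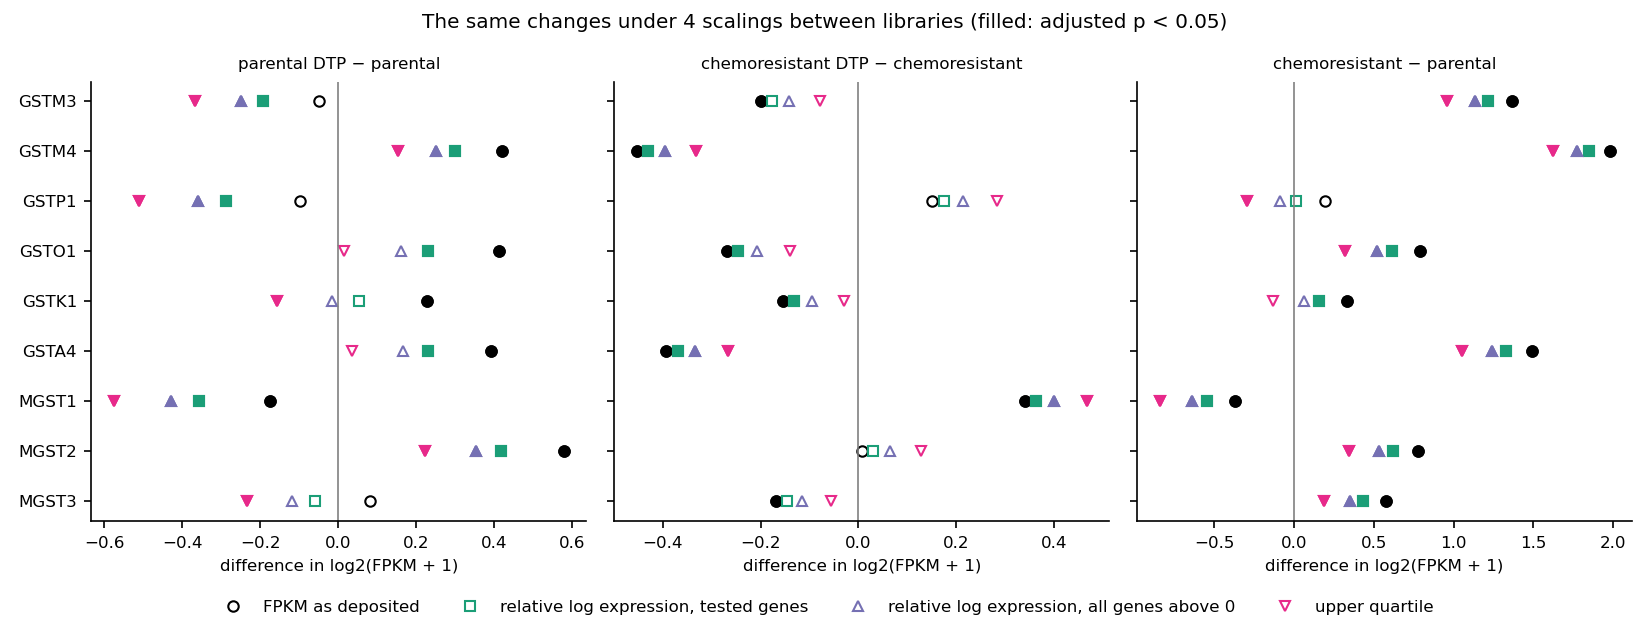
Log2 changes of the 9 tested members in 3 comparisons under 4 scalings between libraries, with filled markers at an adjusted p below 0.05. Every member moves left in the parental DTP and chemoresistant panels and right in the chemoresistant DTP panel when the deposited FPKM are rescaled, and the sign changes for GSTK1 and MGST3 in the parental DTP panel and for GSTP1 and GSTK1 in the chemoresistant panel.

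In the chemoresistant line most members went the other way with the deposited FPKM. Of the 9 tested members 6 fell in DTP cells (GSTM3, GSTM4, GSTO1, GSTK1, GSTA4 and MGST3), MGST1 rose, and GSTP1 and MGST2 did not pass, against 27.4% of all tested genes that fell and 20.5% that rose. The median change was -0.17 over the members and -0.02 over all tested genes. GSTM4 fell to 6.31 ± 0.52 FPKM in chemoresistant DTP cells, against 8.99 ± 0.40 FPKM in chemoresistant cells (SD, n = 6 each), a log2 change of -0.45 (SE 0.05, limma adjusted p = 3.2e-08). GSTA4 fell to 13.2 ± 1.0 FPKM in chemoresistant DTP cells, against 17.8 ± 2.1 FPKM in chemoresistant cells, a log2 change of -0.39 (SE 0.09, limma adjusted p = 0.000936). Neither gene had overlapping libraries, which held for 27.8% of tested genes, and both calls held in every alternative tried.

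MGST1 averaged 28.5 ± 2.2 FPKM in chemoresistant DTP cells and 22.3 ± 1.4 FPKM in chemoresistant cells, a log2 change of 0.34 (SE 0.06, limma adjusted p = 2.36e-05). It had no overlap either, and its change was 0.30 without DTP library 2. The other falls were smaller, at -0.27 for GSTO1, -0.20 for GSTM3, -0.17 for MGST3 and -0.16 for GSTK1 on the log2 scale. Their limma adjusted p-values were 0.0135, 0.0152, 0.00852 and 0.00154, and the libraries of these 4 genes overlapped through DTP library 2. Without that library their changes were -0.34 for GSTO1, -0.27 for GSTM3, -0.21 for MGST3 and -0.19 for GSTK1.

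GSTP1 averaged 769 ± 147 FPKM in chemoresistant DTP cells and 685 ± 53 FPKM in chemoresistant cells, a log2 change of 0.15 (95% interval -0.03 to 0.33) with a limma adjusted p of 0.163. MGST2 averaged 10.2 ± 0.8 FPKM in chemoresistant DTP cells and 10.2 ± 1.4 FPKM in chemoresistant cells, a log2 change of 0.01 (95% interval -0.20 to 0.22). With relative log expression factors only GSTM4 and GSTA4 passed as lower, and 55.1% of all called genes were higher, where the deposited FPKM gave 42.8%. Summed nuclear RNA markers were 41.3 to 58.1 FPKM in chemoresistant DTP libraries and 31.9 to 51.4 FPKM in chemoresistant libraries, and their part in the result was not tested.

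The persister change itself differed between the lines for 7 of the 9 tested members. The change in the chemoresistant line minus that in the parental line was negative for GSTM4, GSTA4, GSTO1, MGST2, GSTK1 and MGST3 and positive for MGST1, among 43.4% of tested genes with a negative and 20.5% with a positive difference. The difference was -0.87 for GSTM4 (SE 0.07, limma adjusted p = 6.57e-11), -0.79 for GSTA4 (SE 0.13, limma adjusted p = 1.03e-05) and -0.68 for GSTO1 (SE 0.12, limma adjusted p = 4.05e-05). For MGST1 it was 0.52 (SE 0.08, limma adjusted p = 4.82e-06). These 4 genes, and GSTK1, passed in opposite directions in the 2 lines, but with relative log expression factors only GSTM4 and MGST1 did. Over all tested genes 16.7% rose in parental DTP cells and fell in chemoresistant DTP cells, and 7.01% did the opposite.

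MGST2 had a difference of -0.57 (SE 0.14, limma adjusted p = 0.00133), with a rise in the parental line and no call in the chemoresistant line. It lost its call with relative log expression factors (-0.29, adjusted p = 0.0583), as GSTO1 did with upper-quartile factors (-0.16, adjusted p = 0.348). The differences of GSTK1 (-0.38) and MGST3 (-0.25) were called with the deposited FPKM, but turned to 0.13 and 0.18 with upper-quartile factors. GSTP1 had a difference of 0.25 (95% interval -0.01 to 0.51, limma adjusted p = 0.0828) and GSTM3 one of -0.15 (95% interval -0.35 to 0.04, limma adjusted p = 0.161). The GSTP1 difference was called under all 3 other scalings, from 0.46 to 0.79 (limma adjusted p from 0.0118 to 0.000373). It was also called without parental libraries 5 and 6 (0.31, limma adjusted p = 0.0441), without the 5 libraries that lay apart (0.24, 0.0145) and without parental DTP library 6 (0.29, 0.0463). The GSTM3 difference was called without chemoresistant DTP library 2 (-0.22, limma adjusted p = 0.00581) and without the 5 libraries (-0.20, 0.0181), yet was 0.29 with upper-quartile factors (0.0572). Since leaving out the 5, or parental libraries 5 and 6, was chosen after the data were seen, the p-values of those exclusions are descriptive only. Relative to the all-gene median of -0.17 the differences were -0.71 for GSTM4, -0.62 for GSTA4, -0.51 for GSTO1 and 0.68 for MGST1. Of the called genes 32.1% had a positive difference with the deposited FPKM and 56.8% with relative log expression factors. The calls of GSTM4, GSTA4 and MGST1 held in every alternative tried.

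In the persister state the lines still differed for 6 of the 9 tested members, all higher in chemoresistant DTP cells, against 29.5% of tested genes that were higher and 32.3% that were lower. GSTM3 averaged 8.55 ± 1.28 FPKM in chemoresistant DTP cells and 3.09 ± 0.14 FPKM in parental DTP cells (SD, n = 6 each), a log2 change of 1.21 (SE 0.07). GSTM4 averaged 6.31 ± 0.52 FPKM in chemoresistant DTP cells and 2.40 ± 0.19 FPKM in parental DTP cells, a log2 change of 1.10 (SE 0.05). GSTA4 averaged 13.2 ± 1.0 FPKM in chemoresistant DTP cells and 7.73 ± 0.57 FPKM in parental DTP cells, a log2 change of 0.71 (SE 0.09). The adjusted p-values of these 3 genes were 6.91e-14, 6.95e-16 and 3.4e-07 (limma), and no libraries overlapped, as for 36.2% of tested genes.

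GSTP1 passed in this comparison, at 769 ± 147 FPKM in chemoresistant DTP cells and 559.8 ± 42.0 FPKM in parental DTP cells, a log2 change of 0.44 (SE 0.09, limma adjusted p = 0.000127). Without chemoresistant DTP library 2, at 1057 FPKM, the change was 0.35. MGST3 was 0.32 higher on the log2 scale (SE 0.05, limma adjusted p = 6.74e-06). MGST1 was 0.15 higher (SE 0.06, limma adjusted p = 0.029) with overlapping libraries, and lost the call when any of 3 libraries was left out, at 0.11 without chemoresistant DTP library 2, 0.14 without library 5 of the parental DTP cells and 0.10 without library 6 of the same group.

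The remaining members did not pass between the persister groups. GSTO1 had a log2 change of 0.11 (95% interval -0.07 to 0.29), MGST2 one of 0.21 (-0.01 to 0.42) and GSTK1 one of -0.06 (-0.13 to 0.02). GSTO1 became called at 0.26 (limma adjusted p = 0.00297) without parental DTP libraries 5 and 6, and GSTK1 at -0.09 (limma adjusted p = 0.012) without chemoresistant DTP library 2. MGST2 was called higher under all 3 other scalings, from 0.23 (limma adjusted p = 0.037) to 0.25 (limma adjusted p = 0.0221).

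Summed over the 9 members other than GSTP1, transcript levels were 92.6 ± 3.9 FPKM in parental DTP cells and 80.4 ± 4.4 FPKM in parental cells, and 114 ± 10 FPKM in chemoresistant DTP cells and 125 ± 4 FPKM in chemoresistant cells (SD, n = 6 each). The 6 soluble members among them summed to 54.9 ± 4.8 FPKM in parental DTP cells and 42.7 ± 2.4 FPKM in parental cells, and to 71.3 ± 7.1 FPKM in chemoresistant DTP cells and 87.5 ± 2.2 FPKM in chemoresistant cells. The 3 microsomal members summed to 37.8 ± 3.5, 37.7 ± 2.2, 43.1 ± 3.1 and 37.5 ± 2.8 FPKM in the same order of groups. The soluble sum thus separated chemoresistant from parental cells, with lowest and highest libraries of 85.4 and 90.3 FPKM against 39.4 and 45.1 FPKM, while the microsomal sums of these 2 groups overlapped. All these sums use the deposited FPKM and were not recomputed under other scalings. Upper-quartile factors were 1.035 to 1.104 in parental DTP and 0.7705 to 0.8535 in parental libraries. Dividing by them lowers the parental DTP sums and raises the parental sums, so the order of sums within a line is not settled.

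Single libraries moved several members at once. Chemoresistant DTP library 2 was the highest of its group for 8 of the 9 tested members, with 1057 FPKM of GSTP1 where the other 5 libraries had at most 769.8 FPKM. Its relative log expression factor was 0.932, against 1.008 to 1.064 in the other 5 libraries of the group. Parental DTP library 6 was the highest of its group for GSTP1 (639 FPKM) and GSTM4 (2.75 FPKM) and the lowest for MGST2 (6.24 FPKM) and MGST1 (21.96 FPKM). Parental libraries 5 and 6 had 7.06 and 7.18 FPKM of GSTA4, and the other 4 had at most 5.55 FPKM.

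**Figure D4:**
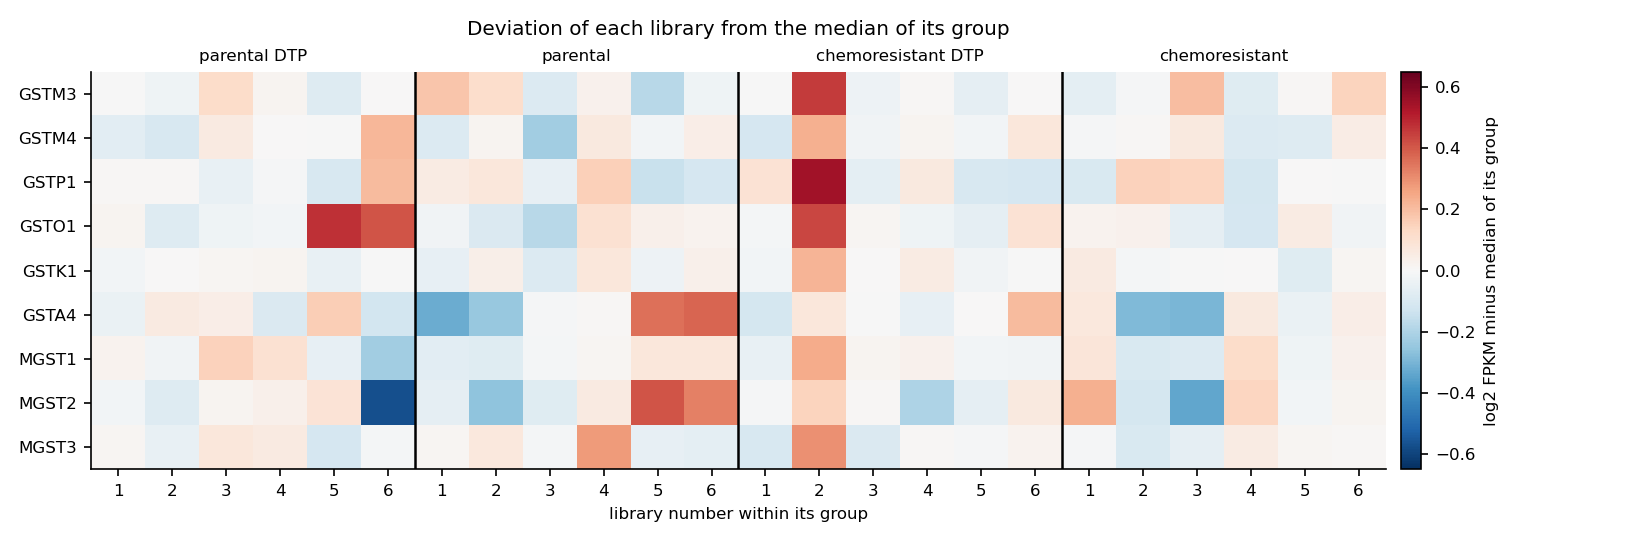
Deviation of each library from the median of its group for the 9 tested members, as a difference in log2 FPKM (colour scale), with libraries 1 to 6 of each group in columns. Chemoresistant DTP library 2 is above its group's median for every member, and parental DTP libraries 5 and 6 stand out for GSTO1.

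The other listed glutathione transferases and related genes, 17 of which had a row and 8 of which were tested, were mostly higher in the chemoresistant line too. In chemoresistant against parental cells 6 of the 8 rose and 1, PTGES2, fell, where 48.2% of all tested genes rose and 29.4% fell. The list's median change was 0.59. Relative log expression factors gave 6 higher and 2 lower with a median of 0.38, and upper-quartile factors 4 and 2 with a median of 0.23. GSTA1, the alpha class enzyme that is abundant in liver, averaged 4.73 ± 0.52 FPKM in chemoresistant cells and 0.526 ± 0.152 FPKM in parental cells (SD, n = 6 each), a log2 change of 1.91 (limma adjusted p = 2.33e-15). It did not pass in either persister comparison, with changes of 0.04 in the chemoresistant line and 0.09 in the parental line. LTC4S, leukotriene C4 synthase, rose by 0.66 in parental DTP cells and fell by 0.23 in chemoresistant DTP cells on the log2 scale, and PTGES, a prostaglandin E synthase, rose by 0.32 and fell by 0.42 in the same 2 comparisons, its rise being 0.12 with relative log expression and -0.0024 with upper-quartile factors, neither called. The LTC4S fall was not called with relative log expression factors (-0.18, adjusted p = 0.0615). GSTT2 and GSTT2B are near-identical copies, so the split of reads between them is uncertain.

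Genes that make and recycle glutathione did not follow the transferases in the chemoresistant persisters. Of 13 tested, 10 rose and 0 fell by limma in chemoresistant DTP against chemoresistant cells (0 fell at an unadjusted p below 0.05 too), or 10 and 1 without the 5 libraries that lay apart. Of all tested genes 20.5% rose and 27.4% fell there. In the other line 7 rose and 4 fell in parental DTP against parental cells, or 5 and 4 with relative log expression factors. The shares over all tested genes were 45.8% and 19.7% with the deposited FPKM. GCLC, the catalytic part of glutamate-cysteine ligase, which limits the rate of glutathione synthesis, averaged 70.6 ± 3.7 FPKM in chemoresistant DTP cells and 41.2 ± 3.0 FPKM in chemoresistant cells, a log2 change of 0.76 (limma adjusted p = 5.99e-10). It averaged 10.8 ± 1.3 FPKM in parental DTP cells and 6.06 ± 0.36 FPKM in parental cells, a log2 change of 0.73 (limma adjusted p = 4.68e-10). The difference between these changes was 0.03 (limma adjusted p = 0.76), but 0.32 with relative log expression factors (limma adjusted p = 0.00102). Its modifier subunit GCLM rose by 1.04 in chemoresistant DTP cells and by 0.70 in parental DTP cells.

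GSR, glutathione reductase, rose by 0.67 in chemoresistant DTP cells and fell by 0.39 in parental DTP cells. CTH, which makes cysteine by transsulfuration, averaged 32.7 ± 2.8 FPKM in parental DTP cells and 1.85 ± 0.29 FPKM in parental cells, a log2 change of 3.56 (limma adjusted p = 9.39e-23). SLC7A11, the cystine importer, averaged 10.2 ± 0.8 FPKM in parental DTP cells and 1.35 ± 0.21 FPKM in parental cells, a log2 change of 2.26 (limma adjusted p = 6.35e-13). Both also rose in chemoresistant DTP cells, by 1.03 and 0.66.

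Listed NRF2 targets outside the transferases were higher in the chemoresistant line for 25 of 26 genes in both the persister and the non-persister comparison. Of all tested genes 29.5% and 48.2% were higher there, in that order. In the persister comparisons 19 of the 26 rose and 3 fell in chemoresistant DTP cells, and 14 rose and 5 fell in parental DTP cells. The shares over all tested genes were 20.5% and 27.4% in chemoresistant DTP cells, and 45.8% and 19.7% in parental DTP cells. With relative log expression factors 20 of the 26 were higher in chemoresistant against parental cells, and 10 rose and 9 fell in parental DTP cells. The list shares genes with the other glutathione lists, among them GCLC, GCLM, SLC7A11, ABCC2 and ABCC3. NFE2L2 averaged 37.3 ± 4.2 FPKM in chemoresistant cells and 15.8 ± 1.8 FPKM in parental cells, a log2 change of 1.19 (limma adjusted p = 8.84e-13). It rose by 1.08 in parental DTP cells and by 0.24 in chemoresistant DTP cells. KEAP1, the adaptor that marks NRF2 for degradation, fell by 0.52 in parental DTP cells and rose by 0.41 in chemoresistant against parental cells, where it was 0.13 with relative log expression and -0.07 with upper-quartile factors, neither called. CYP4F11, a fatty acid hydroxylase, averaged 47.5 ± 1.3 FPKM in chemoresistant cells and 2.42 ± 0.26 FPKM in parental cells, a log2 change of 3.83 (limma adjusted p = 1.24e-23).

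Among the genes for conjugate export and glutathione breakdown, 10 of 14 rose and 2 fell in chemoresistant against parental cells, or 8 and 4 with relative log expression and 8 and 6 with upper-quartile factors. With the deposited FPKM 48.2% of all tested genes rose and 29.4% fell in that comparison. ABCC2, an export pump for glutathione conjugates, averaged 8.39 ± 0.51 FPKM in chemoresistant cells and 0.179 ± 0.042 FPKM in parental cells, a log2 change of 2.99 (limma adjusted p = 4.41e-20). In persisters it averaged 15.1 ± 2.0 FPKM in chemoresistant DTP cells and 0.222 ± 0.180 FPKM in parental DTP cells. ABCC1, another such pump, rose by 0.73 in parental DTP cells and had a change of 0.00 in chemoresistant DTP cells. CHAC1, which breaks glutathione down, averaged 25.0 ± 2.6 FPKM in parental DTP cells and 1.04 ± 0.22 FPKM in parental cells. Of 10 tested glutathione peroxidases and other glutathione users, 8 rose and 1 fell in chemoresistant against parental cells, or 5 and 2 with relative log expression factors. The same shares of all tested genes, 48.2% and 29.4%, apply to the first pair of counts. GPX2, a peroxidase of epithelia, averaged 287 ± 20 FPKM in chemoresistant cells and 39.7 ± 2.1 FPKM in parental cells, a log2 change of 2.82 (limma adjusted p = 1.36e-23). It rose by 0.53 in parental DTP cells and fell by 0.18 in chemoresistant DTP cells, a fall that was not called with relative log expression factors.

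The genes whose pattern over the 24 libraries came closest to the 3 most variable members were found by the root mean square difference in centred log2(FPKM + 1), over 12317 genes. For GSTM4 they were CSTB (0.129), CDC42EP4 (0.132) and OGDHL (0.137), where the median gene had 0.802. For GSTA4 they were TDRD5 (0.122), GLTP (0.126) and FBXO4 (0.132), against a median of 0.605. For GSTM3 they were RPL37 (0.110), EPN3 (0.118) and ID1 (0.133), against a median of 0.678. EPN3 averaged only 0.250 FPKM in parental DTP, 0.232 in parental, 1.95 in chemoresistant DTP and 2.10 in chemoresistant cells. At that level its likeness to GSTM3 depends on the 1 added before the logarithm. The root mean square differences describe likeness of level across libraries that share their groups and depth.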

How the data were processed

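Per the labels' protocols, TRIzol was used for RNA and a standard Illumina preparation for the libraries. The authors deposited FPKM values per gene and library, per the file headers, in 1 table. The submitters' processing notes name GRCh38, and no aligner, counting tool or strand setting is given in the sources used here. The table has 61274 lines, of which 61251 are genes, and the rest, fragments of broken lines, were left out. Because each FPKM was a whole multiple of what 1 read is worth, whole reads could be recovered. All 41101 genes above 0 came out whole (100% of them, within 0.02 reads or a relative 5e-08). Totals ran from 14947490 to 37989783 reads. The table held 0 other columns of per-sample values. Groups and replicate numbers came from the labels.

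The members and gene lists were chosen with earlier results of these data known. Genes whose mean reached 1 FPKM in any group (13729, including 9 of the 10 members) were tested with limma 3.58.1 (R 4.3.3, mean-variance trend) on log2(FPKM + 1), with 4 group means over all 24 libraries, two-sided, and Benjamini-Hochberg adjustment over all tested genes within each comparison. Log2 changes on this scale understate those of low genes. The steps were tested on simulated data. All members were named in every comparison, other genes by the size of change among called list members, plus NFE2L2, KEAP1, GCLC, GCLM, GSR, ABCC1, ABCC2 and ABCC3. PTGES2 and GSTM5 were named after their values were seen. Alternatives changed the pseudocount, filter, scaling, libraries and test. As the test on recovered reads, limma-voom called 9044 genes in parental DTP against parental cells, 6559 in chemoresistant DTP against chemoresistant cells, 10636 in chemoresistant against parental cells, 8515 between the DTP groups and 8792 for the difference of the DTP changes. Libraries of a group had Pearson correlations across genes from 0.974588 to 0.996, and none were identical. Loci came from GENCODE release 29 and promoter windows from RefSeq (GRCh38.p14). No molecular identifiers are mentioned, so limits from reads cover counting error only.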

Additional observations from a re-analysis of the deposited data

Results flagged for a closer look

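Of 40 sets of 6 libraries (10 members in 4 groups), 9 held a library farther from the rest than Dixon's 95% critical value, where chance gives about 1 in 20. Chemoresistant DTP library 2 was high for 6 of them, with 11.1 FPKM of GSTM3, 1057 FPKM of GSTP1, 36.5 FPKM of GSTO1, 16.3 FPKM of GSTK1, 32.8 FPKM of MGST1 and 5.22 FPKM of MGST3. Parental DTP library 6 was high for GSTP1, at 639 FPKM, and low for MGST2, at 6.24 FPKM. Parental library 4 was high for MGST3, at 3.55 FPKM.

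The DTP change in the chemoresistant line minus that in the parental line passed the test for 7 members. Of all tested genes 43.4% passed with a negative and 20.5% with a positive difference. On the log2(FPKM + 1) scale the difference was -0.87 for GSTM4, -0.79 for GSTA4, -0.68 for GSTO1, -0.57 for MGST2, -0.38 for GSTK1, -0.25 for MGST3 and 0.52 for MGST1. The GSTK1 and MGST3 differences changed sign with upper-quartile factors. MGST2 lost its call with relative log expression (limma adjusted p = 0.0583) and upper-quartile factors (0.542), and GSTO1 with upper-quartile factors (0.348).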

How the results depend on the processing

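Among the alternatives, scaling between libraries moved the most member calls, while the filter moved the counts over all genes more. Relative log expression factors gave 2 higher and 3 lower members in parental DTP against parental cells, 2 lower in chemoresistant DTP against chemoresistant cells, and 2 positive and 3 negative differences between the lines. They turned GSTK1 to -0.015 and MGST3 to -0.12 in parental DTP cells, GSTP1 to -0.091 in chemoresistant against parental cells, and the differences of GSTM3 to 0.11 and MGST3 to 0.0026. Upper-quartile factors gave 2 higher and 5 lower members in parental DTP cells, 2 lower in chemoresistant DTP cells, 2 lower in chemoresistant cells, and 2 positive and 2 negative differences. They turned GSTK1 to -0.16 and MGST3 to -0.23 in parental DTP cells, GSTP1 to -0.30 and GSTK1 to -0.13 in chemoresistant cells, and the differences of GSTM3 to 0.29, GSTK1 to 0.13 and MGST3 to 0.18. Factors from the tested genes, added after the data were seen, gave 3 lower members in parental DTP cells and 2 positive differences, with MGST3 at -0.060 in parental DTP cells and the GSTM3 difference at 0.014. The cause of these shifts was not tested.

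Without parental DTP libraries 5 and 6 no member was lower in parental DTP cells (count 0), and likewise without parental libraries 5 and 6 (0), where 2 differences were positive; the second of these and the next alternative were added after the data were seen. Without the 5 libraries that lay apart, MGST2 turned to -0.020 in chemoresistant DTP against chemoresistant cells, 1 member was lower in chemoresistant DTP against parental DTP cells and 2 differences were positive. Leaving out 1 library at a time gave -0.051 to 0.053 for that MGST2 change, 0 to 1 lower members between the persister groups and 1 to 2 positive differences. GSTM3 lost its call in chemoresistant DTP cells with the 12 libraries compared (adjusted p = 0.0526), and MGST1 lost its call between the persister groups there (adjusted p = 0.0754), without a filter (0.0548), without parental DTP libraries 5 and 6 (0.206) and without the 5 libraries (0.42). GSTP1 in chemoresistant against parental cells passed with the stricter filter (adjusted p = 0.0486), the 12 libraries (0.0119), without parental DTP libraries 5 and 6 (0.0475) and without the 5 libraries (0.0393).

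Over all genes, no filter called 16484 in chemoresistant against parental cells, where the main count was 10645. A mean of 5 FPKM called 5012 in parental DTP against parental cells, 3932 in chemoresistant DTP against chemoresistant cells, 6020 in chemoresistant against parental cells, 4895 between the persister groups and 4877 for the difference, with 7540 genes tested and MGST3 left out. Whether the replicate numbers pair the samples is not stated. Same-numbered libraries had correlations of deviations from -0.385 to 0.403, a range that cannot decide it. With a replicate block GSTP1 passed in chemoresistant against parental cells (0.19, limma adjusted p = 0.0394), 8965 genes were called in parental DTP against parental cells (8994 without it), and no other member call changed.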
